A study of Homo sapiens with 8 samples.

Results

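RD-ES, a cell line established from Ewing sarcoma, was compared with and without silencing of the enhancer of LOXHD1. The comparison took the 4 RD-ES libraries out of the 8 libraries of the series, 2 of control cells and 2 of eKD2 cells, and the other 4 libraries came from SK-N-MC, a second Ewing sarcoma line. Of 60332 genes in the deposited table, 14570 averaged 1 FPKM or more over the 4 RD-ES libraries, 630 of these were small RNA genes, and the remaining 13940 genes were tested. FPKM counts fragments per kilobase of transcript, scaled to the size of the library. The eKD2 cells were infected with a lentivirus for dCas9-KRAB, a catalytically dead Cas9 joined to the KRAB repressor domain, and with 1 guide RNA placed next to the enhancer's GGAA repeat. The titles of the RD-ES control libraries read cas9, and the labels describe these cells as infected with empty lenti-dCas9-KRAB. The text of the study speaks of parental cells. An effect of the construct and one of the guide cannot be told apart where the controls lacked the construct. Infection was at a multiplicity of infection of 10, selection used 1 µg/ml puromycin for 3 days, and the cells were used within 5 passages. The eKD2 cells were a polyclonal pool made with 1 guide, and the 2 libraries of each group were described as biological replicates. The p-values measure the spread between such libraries, and bulk RNA cannot tell fewer cells of a kind from less RNA per cell.

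LOXHD1 encodes a protein of PLAT domains that hair cells of the inner ear need, and recessive mutations in it cause hearing loss. Ewing sarcoma cells carry a fusion of EWSR1 with an ETS factor, most often FLI1, and the fusion protein binds runs of GGAA and turns them into enhancers. KRAB recruits the TRIM28 and SETDB1 machinery, which places the repressive mark H3K9me3.

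Cells that run short of amino acids or suffer stress of the endoplasmic reticulum activate ATF4, which binds the C/EBP-ATF response element of genes for amino acid synthesis and transport. MondoA, a sensor of glucose phosphates, binds the carbohydrate response element of TXNIP and ARRDC4, and HSF1 binds the heat shock element of chaperone genes. These 3 motifs were searched on both strands in RefSeq promoters of GRCh38.p14, from 250 bases before to 50 bases after each start. The first was spelled TGATGNAA, the second CACGNG and CNCGNG separated by 5 bases, and the third was searched under its name as units of GAA and TTC in alternation. Of the 47 genes that rose and the 9 that fell, 30 and 4 had a promoter in the table. The C/EBP-ATF response element was present in 4 of the 30 (ASNS, ATF3, CHAC1 and JDP2) and in 2.75% of the 9783 tested genes with a promoter. The carbohydrate response element was present in 2 of the 30 (JDP2 and TXNIP) and in 1.07% of tested genes. The heat shock element was present in HSPA8 and LOXHD1 among the 4 lower genes and in 0.48% of tested genes. The study describes an alternative start site of LOXHD1 in Ewing sarcoma cells, and whether the RefSeq promoter that holds the match is in use in RD-ES was not tested. A match is a run of letters and not evidence of binding. The promoters of CHAC1, TXNIP and HSPA8 are shown because their values are described next, with the matches in capitals (GRCh38.p14).
CHAC1, chr15:40953221-40953520, plus strand: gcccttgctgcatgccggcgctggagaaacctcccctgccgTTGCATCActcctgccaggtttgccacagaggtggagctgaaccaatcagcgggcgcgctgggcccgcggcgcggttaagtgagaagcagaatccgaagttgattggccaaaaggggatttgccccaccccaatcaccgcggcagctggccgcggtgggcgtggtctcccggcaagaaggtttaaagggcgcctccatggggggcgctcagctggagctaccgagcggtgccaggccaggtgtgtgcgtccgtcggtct
TXNIP, chr1:145996530-145996829, minus strand: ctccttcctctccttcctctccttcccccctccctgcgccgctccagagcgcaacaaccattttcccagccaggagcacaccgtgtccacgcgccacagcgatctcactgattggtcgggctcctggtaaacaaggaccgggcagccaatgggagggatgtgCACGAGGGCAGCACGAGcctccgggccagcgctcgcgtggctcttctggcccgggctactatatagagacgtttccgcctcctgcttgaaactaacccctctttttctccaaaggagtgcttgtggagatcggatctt
HSPA8, chr11:123062087-123062386, minus strand: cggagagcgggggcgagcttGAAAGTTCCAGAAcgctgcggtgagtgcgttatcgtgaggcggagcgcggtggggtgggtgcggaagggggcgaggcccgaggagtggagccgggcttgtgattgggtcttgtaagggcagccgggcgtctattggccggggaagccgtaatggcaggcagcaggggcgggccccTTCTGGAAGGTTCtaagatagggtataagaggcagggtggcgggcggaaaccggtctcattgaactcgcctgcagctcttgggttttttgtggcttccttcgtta

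Read numbers do not accompany the FPKM values. Steps of whole reads in genes with low values put control replicate 2 at 127% of the reads of control replicate 1, eKD2 replicate 1 at 57.8% and eKD2 replicate 2 at 112%. These ratios were shared by 18.3% to 18.7% of the low genes and are rough, and they include any scaling by cuffnorm. The RD-ES libraries correlated with r between 0.975 and 0.986 across the tested genes, which are not independent replicates. The correlation was 0.986 within the controls and 0.979 within eKD2, against 0.975 to 0.984 between the groups. The 11 Ewing sarcoma marker genes were all above 1 FPKM on average, with sums of 1569.9 and 1684 FPKM in the controls and 1351 and 1537 FPKM after silencing. Of these 11 markers 6 were separated downwards, meaning that both eKD2 libraries lay below both controls, and 1 was separated upwards, with a median log2 difference of -0.16. None of them passed in limma, and 2 had an unadjusted p under 0.05 on the lower side and 1 on the higher side. Markers of skeletal muscle summed to 20.4 to 28.3 FPKM, with CKM, DES, MYF5, MYH8, MYOD1 and MYOG listed at 0 in all 4 libraries. Most of this sum was TNNT1, at 26.1 and 22.7 FPKM in the controls and 21.1 and 18.4 FPKM after silencing (limma adjusted p = 0.34). Over the 4 libraries, fibroblast markers summed to 69.2 to 90.8 FPKM, epithelial markers to 39.1 to 53.8 FPKM and endothelial markers to 8.71 to 10.6 FPKM.

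LOXHD1 fell most clearly of all genes tested. Control cells had 21.4 and 21.2 FPKM and eKD2 cells 1.04 and 1.02 FPKM, a mean of 21.3 ± 0.171 against 1.03 ± 0.0119 FPKM (SD, n = 2 each). On the log2(FPKM + 1) scale, which understates changes of low genes, the difference was -3.46 with a standard error of 0.0936 (limma adjusted p = 2.2e-05). Its p-value ranked 1 among the 13940 genes. The other 12 tested genes within 1 Mb of LOXHD1 lay between -0.20 and 0.57 on this scale, and none of them passed the adjusted threshold in limma, whereas 2 had an unadjusted p under 0.05. HDHD2, 397 kb away, was at 31.3 and 30.3 FPKM in control cells against 43.1 and 37.7 FPKM in eKD2 cells (log2 difference 0.38, limma adjusted p = 0.18). ST8SIA5, which makes gangliosides and is the nearest tested gene at 10.6 kb, was at 0.913 and 0.51 FPKM in the controls and 1.67 and 1.37 FPKM in the eKD2 pool (log2 difference 0.57, limma adjusted p = 0.30). RNF165 on the other side, at 13.8 kb, was at 2.96 and 3.22 FPKM without silencing and 2.52 and 2.60 FPKM with it.

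**Figure D1:**
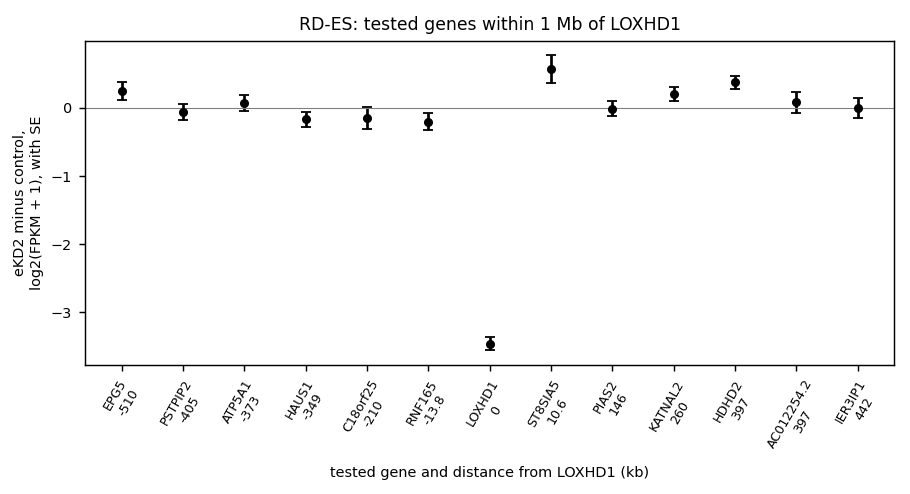
Difference between eKD2 and control on the log2(FPKM + 1) scale (points, with the standard error of the limma fit as bars) for LOXHD1 and the 12 other tested genes within 1 Mb, in order of distance in kb and evenly spaced. LOXHD1 lies at -3.46 and the other genes between -0.20 and 0.57.

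Silencing was accompanied by more increases than decreases. In total 56 of 13940 genes (0.402%) passed an adjusted p of 0.05 in limma, 47 higher in eKD2 (0.337%) and 9 lower (0.0646%). Both eKD2 libraries lay on the same side of both controls in all 56, which passing the test makes likely by itself. Of the 56 genes, 46 are annotated as protein coding. At least a 2-fold change on the log2(FPKM + 1) scale was reached by 29 of the 47 and by 6 of the 9. Over all tested genes, both eKD2 libraries were above both controls in 25.5% and below both in 15.7%, and these shares are the background for every count of separated genes that follows. An unadjusted p under 0.05 was found for 9.61% of genes on the higher side and 4.04% on the lower side. Past the adjusted threshold, 35 genes were higher and 10 lower after scaling each library to a common median. After quantile normalization 49 were higher and 13 lower. The balance over the wider set of tested genes was not stable. As deposited, 70.4% of the genes with an unadjusted p under 0.05 were higher in eKD2, compared with 40.8% after scaling each library to a common median and 50.2% after quantile normalization. After median scaling 16.8% of genes were separated upwards and 25.7% downwards. Fitting the RD-ES libraries alone gave 16 genes past the adjusted threshold, 14 of them among the 56. These 14 were LOXHD1, CHAC1, SESN2, DDIT4, CTH, ATF3, PRPH2, TXNIP, KLF10, ZNF10, DDIT3, TRIB3, ASNS and POLG, and the other 42 calls were reached only with the SK-N-MC libraries in the fit. Of the 56 genes, 19 passed when control replicate 1 was left out and 20 when control replicate 2 was, 30 passed when eKD2 replicate 1 was left out and 47 when eKD2 replicate 2 was, and 17 passed in all 4 of these fits. With 2 libraries a group, the smallest two-sided p that an exact permutation test can give is 0.333.

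**Figure D2:**
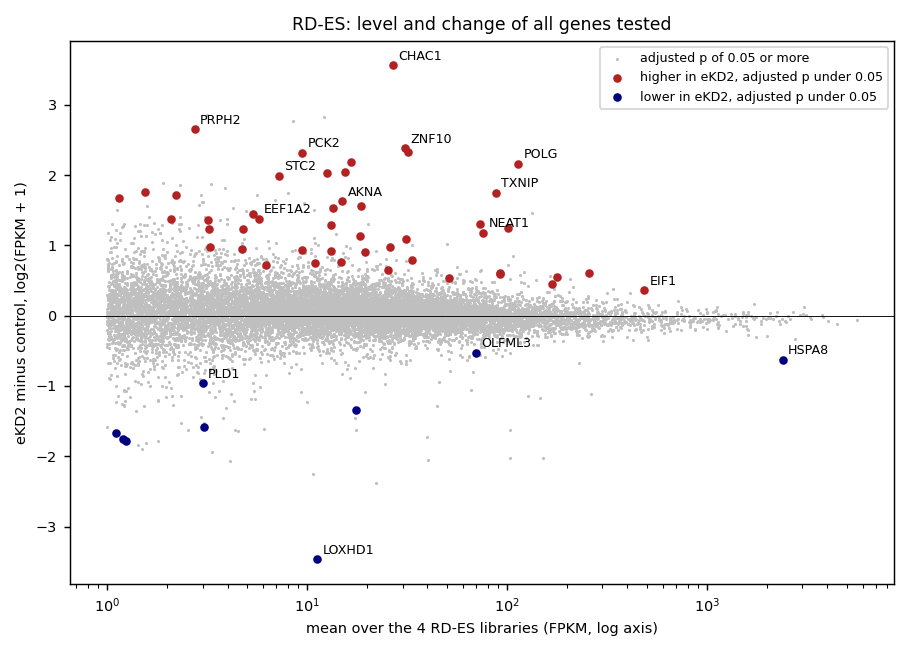
Mean level over the 4 RD-ES libraries (FPKM, log axis) against the difference between eKD2 and control on the log2(FPKM + 1) scale for the 13940 tested genes, one point per gene. The 47 genes that rose (red) reach from EIF1 at 0.36 to CHAC1 at 3.56, and the 9 that fell (blue) from OLFML3 at -0.53 to LOXHD1 at -3.46.

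On the log2(FPKM + 1) scale the largest rise was that of CHAC1, an enzyme that degrades glutathione. It was at 3.02 and 3.63 FPKM in the controls and 44.3 and 56.3 FPKM after silencing, a mean of 3.33 ± 0.431 against 50.3 ± 8.45 FPKM (SD, n = 2 each) and 15.1-fold higher (log2 difference 3.56, limma adjusted p = 1.8e-04). Of 33 tested targets of ATF4 in the amino acid response, 13 rose and none fell, 24 were separated upwards and none downwards, and the median log2 difference was 0.59 against 0.04 over all genes. CHAC1 was set for description in advance, and the list was drawn with earlier results of these data known. These counts therefore give no independent support. ATF3, a stress-induced transcription factor, was at 11.1 and 8.82 FPKM in control cells against 52.3 and 55.1 FPKM in eKD2 cells (log2 difference 2.33, limma adjusted p = 2.6e-04). SESN2, a leucine sensor that restrains mTORC1, was at 5.11 and 5.56 FPKM in the controls and 26.9 and 28.3 FPKM in the eKD2 pool. CTH, which makes cysteine from cystathionine, was at 5.17 and 5.74 FPKM without silencing and 25.9 and 25.3 FPKM with it. These genes all passed the test, and the groups were wide apart in all of them. ATF4 itself was at 192 and 201 FPKM in the controls and 232 and 232 FPKM after silencing (log2 difference 0.24, limma adjusted p = 0.21), so its mRNA was above both controls without passing the test.

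The rise extended over enzymes of amino acid supply in part. PCK2, the mitochondrial phosphoenolpyruvate carboxykinase, was at 3.33 and 1.71 FPKM in control cells against 18.8 and 13.8 FPKM in eKD2 cells, a mean 6.48-fold higher (limma adjusted p = 0.0084). Of 17 tested serine synthesis and one-carbon enzymes, 3 rose (PSAT1, MTHFD2 and ALDH1L2), and 7 were separated upwards and 2 downwards. MTHFD2 was at 139 and 143 FPKM in the controls and 196 and 189 FPKM in the eKD2 pool, whereas its paralogue MTHFD2L was at 13.3 and 13.9 FPKM without silencing and 8.87 and 9.95 FPKM with it (log2 difference -0.49, limma adjusted p = 0.21). Of 22 tested cytosolic aminoacyl-tRNA synthetases and their partners, SARS, AARS and GARS rose, 11 were separated upwards and 2 downwards, with a median log2 difference of 0.11. TARS was at 191 and 175 FPKM in the controls and 242 and 246 FPKM after silencing (limma adjusted p = 0.073). Of 23 amino acid transporters only SLC7A11, the cystine carrier, passed the test, at 10.9 and 11.2 FPKM in control cells against 28.5 and 22.6 FPKM in eKD2 cells. Its partner SLC3A2 was at 163 and 177 FPKM in the controls and 247 and 240 FPKM in the eKD2 pool (limma adjusted p = 0.098). SLC38A5, a glutamine transporter, had the opposite sign, with 109 and 118 FPKM without silencing and 72.9 and 89.0 FPKM with it (limma adjusted p = 0.22). ASS1, which joins citrulline and aspartate in arginine synthesis, rose from 5.86 and 6.39 FPKM to 11.9 and 13.5 FPKM (log2 difference 0.94, limma adjusted p = 0.018). IMPACT, an inhibitor of the amino acid sensor kinase GCN2, rose from 1.53 and 1.51 FPKM to 5.42 and 4.46 FPKM (limma adjusted p = 0.0071).

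Stress of the endoplasmic reticulum uses ATF4 too, and has further arms. Of 29 tested genes on the list of the unfolded protein response none passed the test in limma. On this list 4 had an unadjusted p under 0.05 on the higher side and 1 on the lower side, and the median of 0.03 was close to that of all genes. ATF3, DDIT3, TRIB3 and PPP1R15A, which can also respond to this stress, passed but were not on the list (limma adjusted p from 2.6e-04 for ATF3 to 0.018 for PPP1R15A). The count of none thus depends on how the lists were drawn, and a part of this stress in the rise was not tested. HERPUD1, part of the degradation machinery of the endoplasmic reticulum, was at 27.3 and 38.9 FPKM in the controls and 59.9 and 75.1 FPKM after silencing (log2 difference 1.02, limma adjusted p = 0.086). XBP1 was at 24.1 and 22.2 FPKM in control cells against 35.6 and 32.3 FPKM in eKD2 cells (log2 difference 0.53, limma adjusted p = 0.088). ERN1, the sensor that splices XBP1 mRNA, was at 2.79 and 2.71 FPKM in the controls and 6.65 and 4.41 FPKM in the eKD2 pool (limma adjusted p = 0.19). These 3 members were separated upwards, as were 7 of the 29 in all, and 4 were separated downwards.

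**Figure D3:**
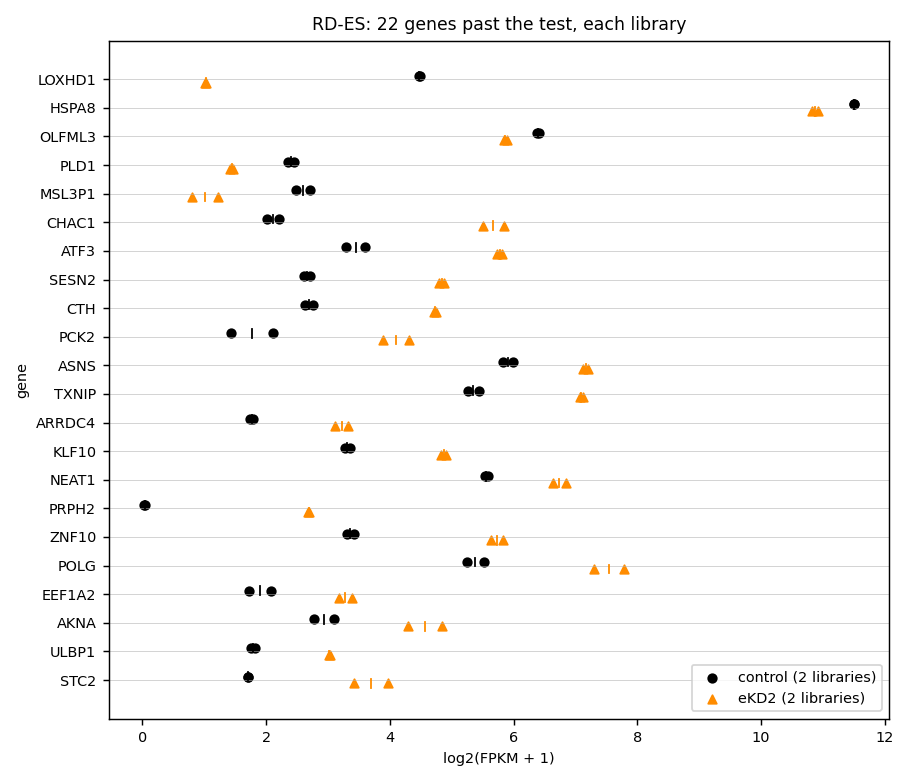
Level on the log2(FPKM + 1) scale in each RD-ES library (circles for 2 control libraries, triangles for 2 eKD2 libraries, short lines for group means) of genes that passed the limma test. The groups do not overlap in any of them, which the choice by the test makes likely. The eKD2 libraries lie close together in TXNIP and SESN2 and further apart in AKNA, POLG and STC2.

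Outside the lists of the amino acid response, TXNIP and its relative ARRDC4 rose. TXNIP, which binds thioredoxin and removes glucose transporters from the cell surface, was at 42.3 and 37.3 FPKM without silencing and 134 and 138 FPKM with it, a mean of 39.8 ± 3.52 against 136 ± 3.32 FPKM (SD, n = 2 each). The mean was 3.42-fold higher (log2 difference 1.75, limma adjusted p = 5.5e-04), and the change passed in all 14 alternatives of the analysis. ARRDC4 was at 2.34 and 2.46 FPKM in the controls and 8.98 and 7.68 FPKM after silencing, 3.47-fold higher on average (limma adjusted p = 0.0053), and with the RD-ES libraries alone its adjusted p was 0.11. The RefSeq promoter of TXNIP holds a carbohydrate response element that begins 88 bases before the start. ARRDC4 was not among the higher genes with a match. Only 30 of the 47 higher genes had a promoter to search, over 300 bases, so this does not show that ARRDC4 lacks the element. Of 20 tested glycolytic genes none passed the test in limma, and 4 had an unadjusted p under 0.05 on the lower side and none on the higher side. Both eKD2 libraries were below both controls in 8 of the 20 and above both in 2. PGAM1 was at 25.02 and 26.7 FPKM in control cells against 20.6 and 19.2 FPKM in eKD2 cells (log2 difference -0.36, limma adjusted p = 0.21), and PGK1 was at 1207 and 1191 FPKM in the controls and 1037 and 1091 FPKM in the eKD2 pool (log2 difference -0.17, limma adjusted p = 0.25).

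Transcription factors and a nuclear RNA also rose. KLF10, a zinc finger factor induced early by TGF-beta, was at 8.63 and 9.23 FPKM without silencing and 27.4 and 29.1 FPKM with it (log2 difference 1.56, limma adjusted p = 6.9e-04). JDP2, a bZIP factor that dimerizes with JUN proteins, rose from 4.09 and 4.87 FPKM to 7.93 and 8.12 FPKM (limma adjusted p = 0.049). NEAT1, the long non-coding RNA on which paraspeckles form, was at 46.9 and 45.3 FPKM in the controls and 114 and 98.4 FPKM after silencing, 2.31-fold higher on average (log2 difference 1.18, limma adjusted p = 0.0034). Of 21 tested immediate early genes ATF3 and KLF10 rose, 6 were separated upwards and 5 downwards, and the median was 0.02. JUN was at 7.48 and 9.04 FPKM in control cells against 12.4 and 13.5 FPKM in eKD2 cells (limma adjusted p = 0.11), whereas FOSL1 was at 4.11 and 3.86 FPKM in the controls and 2.77 and 2.51 FPKM in the eKD2 pool (limma adjusted p = 0.25). BTG1, an antiproliferative cofactor, rose from 12.7 and 13.5 FPKM to 28.8 and 22.5 FPKM. PDCD4, which inhibits the helicase EIF4A in translation, rose from 23.1 and 24.9 FPKM to 43.6 and 41.4 FPKM (log2 difference 0.80, limma adjusted p = 0.016). The start codon factor EIF1 had the smallest change on the log2 scale among genes that passed, from 424 and 429 FPKM to 551 and 544 FPKM (log2 difference 0.36, limma adjusted p = 0.046).

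A few genes rose from a low or silent state. PRPH2, a membrane protein of photoreceptor discs on chromosome 6 (chr6:42664336-42690335 in GRCh37), was at 0.0276 and 0.0217 FPKM without silencing and 5.41 and 5.50 FPKM with it (log2 difference 2.65, limma adjusted p = 4.9e-04). It was listed at 0 in all 4 SK-N-MC libraries, which enter the fit with no spread of their own, and with the RD-ES libraries alone its adjusted p was 0.028. EEF1A2, the elongation factor of neurons and muscle, was at 2.28 and 3.24 FPKM in the controls and 9.41 and 7.999 FPKM after silencing (log2 difference 1.38, limma adjusted p = 0.018). STC2, a secreted glycoprotein and a known ATF4 target, rose from 2.26 and 2.25 FPKM to 9.69 and 14.6 FPKM. ULBP1, a ligand of the natural killer receptor NKG2D, rose from 2.37 and 2.54 FPKM to 7.09 and 7.15 FPKM (limma adjusted p = 0.0046). The non-coding AL354872.2 was at 0.296 and 0.697 FPKM in the controls and 4.09 and 3.71 FPKM in the eKD2 pool, and FMR1-IT1 at 0.559 and 0.879 FPKM without silencing and 3.87 and 3.005 FPKM with it. AL354872.2 (from chr1:70910754 in GRCh37) lies downstream of CTH, which ends at chr1:70905534 on the same strand and also rose. Whether its reads belong to transcripts of CTH was not tested. With the RD-ES libraries alone the adjusted p was 0.10 for STC2, 0.18 for ULBP1, 0.21 for AL354872.2, 0.23 for EEF1A2 and 0.30 for FMR1-IT1 in limma.

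ZNF10, POLG and AKNA rose from an expressed state. ZNF10 is the zinc finger protein from which the KRAB domain of dCas9-KRAB is commonly taken. It was at 8.89 and 9.68 FPKM in the controls and 56.1 and 49.0 FPKM after silencing, 5.66-fold higher on average (log2 difference 2.38, limma adjusted p = 6.9e-04). In SK-N-MC its log2 difference was 2.68, and the interaction between line and silencing missed the threshold (limma adjusted p = 0.54). FPKM values per gene cannot tell reads of the gene from reads of the construct, and the records differ on whether the RD-ES controls carried it. POLG, the mitochondrial DNA polymerase, was at 36.9 and 44.9 FPKM in control cells against 220 and 156 FPKM in eKD2 cells (log2 difference 2.16, limma adjusted p = 0.010). POLG shares exonic bases with FANCI, and FANCI was at 109 and 136 FPKM in the controls and 114 and 142 FPKM in the eKD2 pool. POLG passed in only 1 of the 4 fits without a library. AKNA, an AT-hook protein reported at immune promoters and at centrosomes, was at 7.58 and 5.87 FPKM without silencing and 18.7 and 27.7 FPKM with it, a mean of 6.72 ± 1.21 against 23.2 ± 6.37 FPKM (SD, n = 2 each) and 3.45-fold higher (log2 difference 1.63, limma adjusted p = 0.028). AKNA passed in 2 of the 4 fits without a library, and with the RD-ES libraries alone its adjusted p was 0.21.

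Further genes rose as well. GPCPD1, which splits glycerophosphocholine, rose from 7.05 and 7.34 FPKM to 22.5 and 16.0 FPKM. BBS7, a subunit of the BBSome of primary cilia, rose from 17.2 and 17.2 FPKM to 33.3 and 36.3 FPKM (log2 difference 0.98, limma adjusted p = 0.020). MANBA, a lysosomal mannosidase, rose from 2.90 and 2.86 FPKM to 7.15 and 5.92 FPKM. The linker histone gene H1F0 rose from 41.3 and 41.7 FPKM to 59.0 and 62.5 FPKM, and CYP2R1, which hydroxylates vitamin D, rose from 20.3 and 18.9 FPKM to 32.9 and 30.0 FPKM. For these 5 genes the adjusted p lay at 0.034 or below in the fit of all libraries. With the RD-ES libraries alone it was 0.11 for BBS7 and between 0.23 and 0.30 for the others.

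Only 9 genes fell, and besides LOXHD1 they were of 2 kinds. The first was expressed coding genes. HSPA8, the constitutive HSC70 chaperone, was at 2897 and 2895 FPKM in the controls and 1822 and 1938 FPKM after silencing, a mean 35.1% lower (log2 difference -0.62, limma adjusted p = 0.016). PLD1, which releases choline from phosphatidylcholine, was at 4.10 and 4.45 FPKM in control cells against 1.75 and 1.67 FPKM in eKD2 cells (log2 difference -0.96, limma adjusted p = 0.019). OLFML3, a secreted olfactomedin-like protein, was at 81.9 and 83.9 FPKM in the controls and 56.2 and 58.2 FPKM in the eKD2 pool (log2 difference -0.53, limma adjusted p = 0.049). With the RD-ES libraries alone the adjusted p was 0.059 for HSPA8, 0.32 for PLD1 and 0.30 for OLFML3, and with the replicate number as a block it was 0.12, 0.13 and 0.13. HSPA8 and PLD1 passed only in the fit without eKD2 replicate 2 among the 4 fits without a library, and OLFML3 passed in none of them. The second kind was pseudogenes and a short non-coding gene. MSL3P1 was at 4.58 and 5.56 FPKM without silencing and 1.33 and 0.734 FPKM with it (limma adjusted p = 0.020). AC007485.1, AC090897.1 and AC068228.1 were at 1.92 to 3.02 FPKM in control and listed at 0 in both eKD2 libraries, and AC068631.3 fell from 23.4 and 27.6 FPKM to 10.1 and 8.75 FPKM. These 4 genes have annotated transcripts under 300 bases, a length at which FPKM rests on few reads, and such genes were 111 of all genes tested. MSL3P1, AC007485.1 and AC090897.1 were listed at 0 in all 4 SK-N-MC libraries too, so that these add no spread to the fit. With the RD-ES libraries alone the adjusted p was 0.099 for AC068631.3, 0.23 for MSL3P1 and AC007485.1, 0.24 for AC068228.1 and 0.25 for AC090897.1, and with the block it lay between 0.10 and 0.15 for these 5 genes. LOXHD1 was the only lower gene that passed in either of these fits.

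Larger but uncertain decreases stood below these. VPS9D1 was at 4.56 and 7.33 FPKM in the controls and 0.730 and 0.818 FPKM after silencing (log2 difference -1.94, limma adjusted p = 0.062). PVT1, a long non-coding RNA beside MYC, was at 206 and 113 FPKM in control cells against 52.1 and 45.3 FPKM in eKD2 cells (log2 difference -1.63, limma adjusted p = 0.10). MYC was at 37.0 and 47.4 FPKM in the controls and 36.7 and 41.8 FPKM in the eKD2 pool (log2 difference -0.09), and its groups overlapped. AC022400.9, RPL36AP15 and AL645608.6, a short unclassified transcript, a ribosomal pseudogene and a non-coding gene, were at 1.45 to 4.50 FPKM in control and near or at 0 in eKD2, with adjusted p-values between 0.12 and 0.21.

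The cytosolic heat shock chaperones lay on the lower side. Of 23 tested members HSPA8 fell and none rose, 12 were separated downwards and 1 upwards, and the median log2 difference was -0.16. The median was -0.13 after quantile normalization and -0.23 after median scaling. With an unadjusted p under 0.05, 9 members were lower and none was higher. The inducible HSPA1A was at 10.3 and 9.97 FPKM in the controls and 6.30 and 7.41 FPKM after silencing (log2 difference -0.51, limma adjusted p = 0.16). HSPH1, a nucleotide exchange factor of HSP70, was at 209 and 177 FPKM in control cells against 156 and 144 FPKM in eKD2 cells (limma adjusted p = 0.20). The cochaperone DNAJB1 was at 33.6 and 40.3 FPKM in the controls and 28.6 and 26.2 FPKM in the eKD2 pool (limma adjusted p = 0.20).

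Lipid synthesis genes lay on the lower side without any that passed. Of 25 tested genes of cholesterol synthesis and LDL uptake, 12 were separated downwards and 1 upwards, with a median log2 difference of -0.12, and limma called none, while 3 had an unadjusted p under 0.05. LSS, the lanosterol synthase, was at 57.0 and 53.9 FPKM without silencing and 33.5 and 41.6 FPKM with it (log2 difference -0.56, limma adjusted p = 0.20). Of 19 genes of fatty acid synthesis 9 were separated downwards and 2 upwards, none passed in limma, and 1 on each side had an unadjusted p under 0.05. ACLY, which makes cytosolic acetyl-CoA, was at 108 and 108 FPKM in the controls and 80.1 and 86.3 FPKM after silencing (log2 difference -0.38, limma adjusted p = 0.17). Both medians kept their sign under both scalings.

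Interferon-stimulated genes had the lowest median of the lists with at least 10 tested members. Of 40 tested, 20 were separated downwards and 4 upwards, with a median log2 difference of -0.18 (-0.25 with median scaling and -0.23 with quantile normalization). None passed in limma, and 3 had an unadjusted p under 0.05 on the lower side and 2 on the higher side. IFI6, a mitochondrial protein induced by interferon, was at 61.1 and 70.0 FPKM in control cells against 39.1 and 36.2 FPKM in eKD2 cells (log2 difference -0.78, limma adjusted p = 0.092). OAS2, which makes 2′-5′ oligoadenylate, was at 2.92 and 2.35 FPKM in the controls and 0.906 and 1.05 FPKM in the eKD2 pool (limma adjusted p = 0.096). XAF1 went the other way, with 0.179 and 0.630 FPKM without silencing and 1.95 and 1.45 FPKM with it (limma adjusted p = 0.14). Of 18 genes of MHC class I presentation 7 were separated downwards and 3 upwards, none passed in limma, and 1 had an unadjusted p under 0.05.

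Inflammatory genes lay on the higher side. Of 27 tested genes of NF-kB and inflammation 15 were separated upwards and 2 downwards, and the median was 0.19 (0.12 with median scaling and 0.14 with quantile normalization). At an unadjusted p under 0.05, 10 were higher and 1 was lower. Only AKNA passed in limma. It was set for description in advance, so its call adds no support for the list. TNFAIP3, a feedback inhibitor of NF-kB, was at 16.1 and 17.1 FPKM in the controls and 27.2 and 26.2 FPKM after silencing (log2 difference 0.66, limma adjusted p = 0.10). The adhesion receptor VCAM1 was at 9.53 and 8.23 FPKM in control cells against 15.8 and 12.9 FPKM in eKD2 cells (limma adjusted p = 0.13), and the chemokine CXCL8 at 4.30 and 3.47 FPKM in the controls and 8.42 and 5.78 FPKM in the eKD2 pool (limma adjusted p = 0.20). CXCL10, a chemokine that interferon also induces, was at 38.0 and 35.1 FPKM without silencing and 21.5 and 23.6 FPKM with it (log2 difference -0.67, limma adjusted p = 0.072). The 11 immune cell markers summed to 5.03 and 4.95 FPKM in the controls and 8.63 and 9.69 FPKM after silencing. Of the 3 that were tested 2 were separated upwards. CD68 was at 1.16 and 1.85 FPKM in the controls and 2.49 and 4.17 FPKM after silencing (limma adjusted p = 0.27). ITGAM was at 1.69 and 0.846 FPKM in control cells against 3.07 and 2.46 FPKM in eKD2 cells (limma adjusted p = 0.25). CD3D, CD3E, LYZ, MS4A1 and NKG7 were listed at 0 in all 4 libraries. The part of immune markers in the inflammatory values was not tested.

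**Figure D4:**
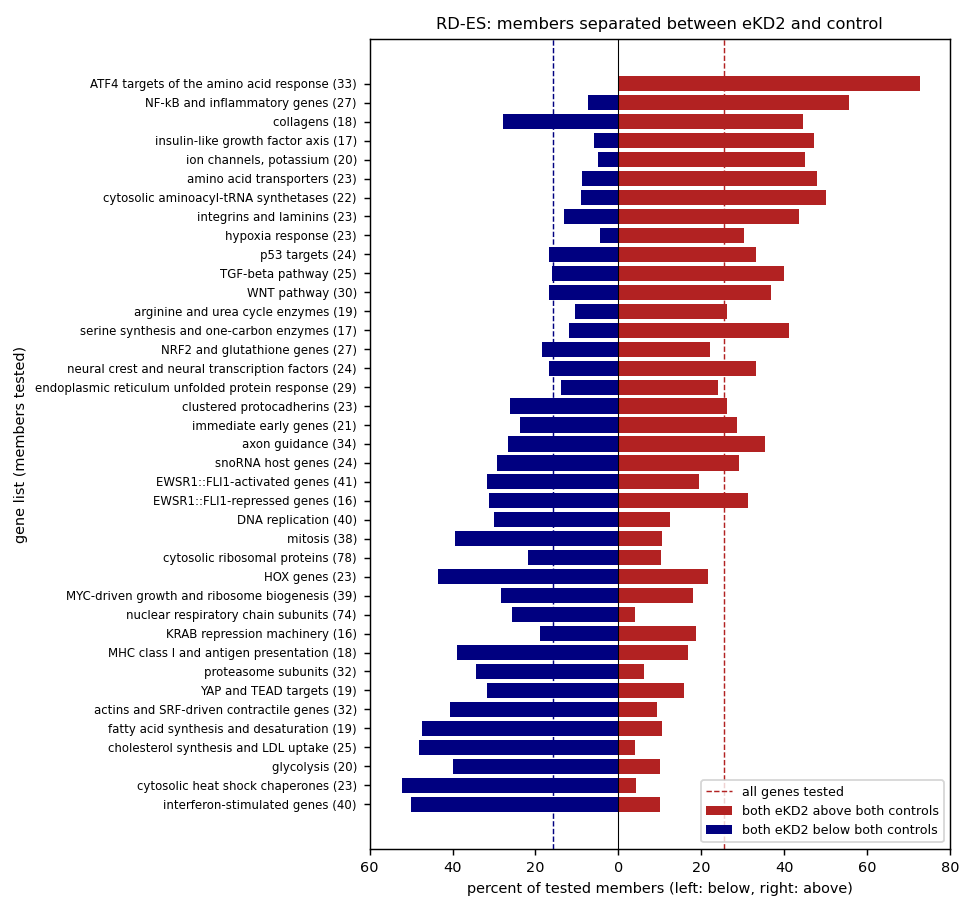
Share of tested members of each gene list with both eKD2 libraries above both controls (right, red) or below both (left, blue), in percent, for lists with at least 15 tested members ordered by median log2 difference. The dashed lines mark the shares over all 13940 genes, 25.5% above and 15.7% below, and the ATF4 targets reach 72.7% above while the heat shock chaperones reach 52.2% below.

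Adhesion was examined because the study followed the adhesion and cytoskeleton of these cells. Of 23 tested integrins, laminins and their ligands none passed in limma, 10 were separated upwards and 3 downwards, and 7 had an unadjusted p under 0.05 on the higher side and 2 on the lower side. The laminin receptor subunit ITGA3 was at 0.768 and 1.07 FPKM in control cells against 4.66 and 2.00 FPKM in eKD2 cells (log2 difference 1.11, limma adjusted p = 0.19). Fibronectin (FN1) was at 39.8 and 52.9 FPKM in the controls and 72.3 and 67.5 FPKM in the eKD2 pool (limma adjusted p = 0.17), whereas ITGAV, a subunit of vitronectin receptors, was at 13.8 and 15.5 FPKM without silencing and 10.7 and 11.6 FPKM with it (limma adjusted p = 0.28). Of 18 collagens none passed in limma, and 3 on each side had an unadjusted p under 0.05. COL6A1 was at 2.46 and 2.61 FPKM in the controls and 4.61 and 5.23 FPKM after silencing (log2 difference 0.74, limma adjusted p = 0.086), and COL1A1 at 5.49 and 7.05 FPKM in control cells against 4.22 and 4.36 FPKM in eKD2 cells (limma adjusted p = 0.21).

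The cytoskeleton lay slightly lower. Of 32 tested actins and contractile genes 13 were separated downwards and 3 upwards, with a median of -0.10, and none passed in limma, while 6 had an unadjusted p under 0.05 on the lower side and 2 on the higher side. ACTB was at 2111 and 2272 FPKM in the controls and 1659.9 and 1945.5 FPKM in the eKD2 pool (log2 difference -0.29, limma adjusted p = 0.24), and FLNA, which crosslinks actin, at 538 and 598 FPKM without silencing and 413 and 482 FPKM with it (limma adjusted p = 0.27). Of 19 targets of YAP and TEAD 6 were separated downwards and 3 upwards, with CTGF at 5.06 and 4.26 FPKM in control cells against 3.42 and 2.99 FPKM in eKD2 cells, and none passed in limma, while 4 had an unadjusted p under 0.05 on the lower side and 1 on the higher side.

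Growth and division genes held none that passed, and more of them were separated downwards than upwards. None of 38 mitosis genes, 40 DNA replication genes, 39 genes of MYC-driven growth, 32 proteasome subunits, 74 respiratory chain subunits or 78 ribosomal proteins passed in limma. Separated downwards and upwards were 15 and 4 mitosis genes (39.5% downwards), 12 and 5 for replication (30.0%), 11 and 7 for MYC-driven growth (28.2%), 11 and 2 for the proteasome (34.4%), 19 and 3 for the respiratory chain (25.7%) and 17 and 8 for ribosomal proteins (21.8%), against 15.7% downwards over all genes. At an unadjusted p under 0.05, 7 mitosis genes were lower and 1 was higher, for replication 4 and 1, for the proteasome 2 and 0, for the respiratory chain 6 and 0, for ribosomal proteins 1 and 1, and for MYC-driven growth 0 and 0. Among all tested genes at 48.6 FPKM or more, the quintile with the highest levels, 23.3% were separated downwards and 16.1% upwards. The downward share of ribosomal proteins (21.8%) was below that of this quintile, and that of the respiratory chain (25.7%) was close to it. The lists were not compared with genes of matching level, so the excess over 15.7% cannot be assigned to growth and division. The medians lay between -0.06 and -0.04 as deposited and between -0.14 and -0.11 after median scaling. Ribosomal proteins changed side with the scaling, since 46 were separated downwards and 1 upwards after median scaling and 4 and 15 after quantile normalization, with medians of -0.11 and 0.02. PLK1, a mitotic kinase, was at 109 and 116 FPKM in the controls and 83.4 and 92.7 FPKM in the eKD2 pool (log2 difference -0.35, limma adjusted p = 0.20). CCNB1, the cyclin of mitotic entry, was at 339 and 350 FPKM without silencing and 283 and 307 FPKM with it (log2 difference -0.22, limma adjusted p = 0.24). In the p53 list of 24 genes SESN2 rose and none fell.

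Hypoxia genes and the insulin-like growth factor axis were also examined. Of 23 tested hypoxia genes none passed in limma, 5 had an unadjusted p under 0.05 on the higher side and none on the lower side, and the median of 0.08 became 0.0050 with median scaling and -0.0039 with quantile normalization. The histone demethylase KDM3A was at 25.2 and 26.9 FPKM in control cells against 37.9 and 36.9 FPKM in eKD2 cells (log2 difference 0.51, limma adjusted p = 0.073). NDRG1 was at 0.897 and 1.35 FPKM in the controls and 5.07 and 2.19 FPKM in the eKD2 pool (limma adjusted p = 0.21). Of 17 tested genes of the insulin-like growth factor axis 1 rose, STC2, which inhibits the protease PAPPA, and 8 were separated upwards and 1 downwards, with a median of 0.18. IGF1R, the receptor on which Ewing sarcoma cells depend, was at 18.1 and 13.7 FPKM without silencing and 21.5 and 23.2 FPKM with it (limma adjusted p = 0.33).

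No gene in the lists of neural crest and neural factors, the Notch pathway, axon guidance, potassium channels or HOX genes passed in limma. Of 24 tested neural crest and neural transcription factors 8 were separated upwards and 4 downwards, and 4 and 3 had an unadjusted p under 0.05 in limma. PAX7, which Ewing sarcoma cells express, was at 29.5 and 33.0 FPKM in the controls and 20.1 and 21.3 FPKM after silencing (log2 difference -0.57, limma adjusted p = 0.065), whereas its paralogue PAX3 was at 17.9 and 16.4 FPKM in control cells against 22.1 and 21.4 FPKM in eKD2 cells (log2 difference 0.33, limma adjusted p = 0.28). TWIST1, a bHLH factor of mesenchyme, was at 20.05 and 20.5 FPKM in the controls and 14.2 and 14.5 FPKM in the eKD2 pool (limma adjusted p = 0.073). Of 14 tested Notch pathway genes 2 were separated upwards and none downwards, and 1 on the higher side had an unadjusted p under 0.05. The Notch ligand JAG1 was at 0.894 and 0.605 FPKM without silencing and 2.24 and 2.37 FPKM with it (log2 difference 0.92, limma adjusted p = 0.079). Of 34 axon guidance genes 12 were separated upwards and 9 downwards, and 4 and 2 had an unadjusted p under 0.05. The netrin receptor DCC was at 2.75 and 2.74 FPKM in the controls and 7.77 and 5.62 FPKM after silencing (log2 difference 1.03, limma adjusted p = 0.073). Of 20 tested potassium channel genes 9 were separated upwards and 1 downwards, and 3 on the higher side had an unadjusted p under 0.05. Of 23 HOX genes 5 were separated upwards and 10 downwards, and 2 and 3 had an unadjusted p under 0.05, with HOXB9 at 16.0 and 16.8 FPKM in control cells against 22.6 and 22.5 FPKM in eKD2 cells and HOXC6 at 21.8 and 19.0 FPKM in the controls and 15.7 and 15.1 FPKM in the eKD2 pool.

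The lists of genes under the fusion protein held none that passed, but they leave out LOXHD1, which the fusion also drives and which passed. Of 41 tested genes that EWSR1::FLI1 activates 8 were separated upwards and 13 downwards (31.7%, against 15.7% over all genes), none passed in limma, and 5 and 3 had an unadjusted p under 0.05. Of 16 tested genes that it represses 5 were separated on each side (31.2%, against 25.5% upwards and 15.7% downwards over all genes), none passed in limma, and 4 and 3 had an unadjusted p under 0.05. The medians were -0.02 and -0.03 as deposited and -0.09 and -0.10 after median scaling. The Ewing sarcoma markers given above, with 6 of 11 separated downwards (54.5%), had the largest such share of the lists with at least 10 tested members. GLI1, a Hedgehog factor and a target of the fusion, was at 5.60 and 5.25 FPKM without silencing and 13.3 and 9.40 FPKM with it (log2 difference 0.93, limma adjusted p = 0.11). EWSR1, whose reads include those of the part in the fusion, was at 182 and 179 FPKM in the controls and 134 and 163 FPKM after silencing (log2 difference -0.28, limma adjusted p = 0.27). LIPI was at 62.2 and 56.2 FPKM in control cells against 52.8 and 40.3 FPKM in eKD2 cells (limma adjusted p = 0.37). Of 9 tested hair bundle genes only LOXHD1 passed, and MYO6, a myosin of the hair bundle base, was at 6.97 and 7.19 FPKM in the controls and 12.9 and 8.75 FPKM in the eKD2 pool (limma adjusted p = 0.28).

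Small shifts went with properties of the genes. In the quintile of genes with the highest levels (48.6 FPKM or more) the median log2 difference was -0.02, with 16.1% separated upwards and 23.3% downwards, compared with 0.08 in the quintile with the lowest levels. In the quintile with the lowest GC content (at most 40.2%) the median was 0.08, with 31.6% separated upwards, compared with -0.0092 and 17.1% in the quintile with the highest. The quintile with the longest transcripts was at 0.08 and that with the shortest at -0.0011. The order over GC content stayed after median scaling (0.0099 to -0.08) and after quantile normalization (0.04 to -0.06), whereas the order over levels was removed by quantile normalization. Of the autosomes, chromosome 6 had 37.0% and chromosome 3 had 34.1% of their tested genes separated upwards, compared with 19.2% on chromosome 22. These shifts are of the size of most list medians given here, and their part in the lists was not tested.

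**Figure D5:**
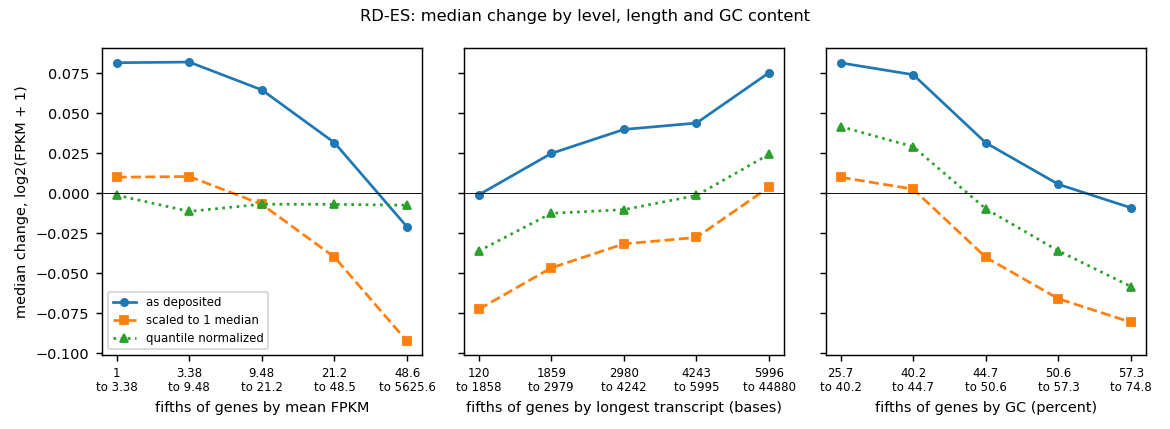
Median difference between eKD2 and control on the log2(FPKM + 1) scale in quintiles of the tested genes by mean FPKM, by length and by GC percent of the longest annotated transcript, as deposited (circles), after scaling to 1 median (squares) and after quantile normalization (triangles). The median falls from 0.08 to -0.0092 from the lowest to the highest GC quintile as deposited and keeps this slope under both scalings.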

How the data were processed

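RNA of RD-ES control and RD-ES eKD2 cells (2 libraries each) was analysed together with 2 and 2 libraries of SK-N-MC. According to the methods of the study, poly-A RNA was made into TruSeq libraries and sequenced single-end with 75 bases, and the authors aligned the reads with STAR to GRCh37 and used cufflinks and cuffnorm to give each gene an FPKM value in each library. The submitters' processing notes name FastQC, STAR, Cuffnorm and DESeq2. The deposited FPKM values were used as they stand. FPKM values carry no read counts, so a count test was not used, and depth is known only as a rough ratio. The methods do not say whether the libraries kept the strand, and without it overlapping genes on opposite strands share reads.

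Values were compared as log2(FPKM + 1) for genes that averaged 1 FPKM or more in RD-ES, without small RNA genes, with limma 3.58.1 in R 4.3.3 (lmFit over the 4 groups in 1 fit with 4 residual degrees of freedom, eBayes with trend) and Benjamini-Hochberg adjustment over all 13940 genes, without covariates. The fit was tested on simulated data. Gene positions and types came from GENCODE release 44 lifted to GRCh37. The gene lists (51 lists with 1424 genes, 1120 of them tested) were written from textbook knowledge, and the members, the lists and the rules were chosen with earlier results of these data known, so they give no independent support. Lists were described by counts and medians, with no test.

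Genes were named by rule: LOXHD1, CHAC1 and AKNA, the 20 higher and 15 lower genes with the largest change among those past the threshold, the lower ones filled up with separated genes of unadjusted p under 0.01, and from each list those past the threshold or else up to 4 separated members. HDHD2, ST8SIA5, RNF165, FANCI, MYC, ATF4, PAX3, IGF1R and other single members outside this rule were named after their values were seen. Alternatives were another pseudocount, other filters, median scaling, quantile normalization, RD-ES alone, eBayes without trend or robust, a replicate block and leaving out each library. A few genes and a sequence are not reported here.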

Additional observations from a re-analysis of the deposited data

Results flagged for a closer look

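The change between eKD2 and control differed between RD-ES and SK-N-MC (interaction in limma, adjusted over all genes) for 15 of the 56 genes that passed in RD-ES. Differences are given as the log2 change in RD-ES minus that in SK-N-MC, and the comparison uses 2 libraries in each of 4 groups. In the amino acid response the difference was 4.48 for CHAC1, 3.01 for ATF3, 2.88 for SESN2, 2.40 for DDIT4, 2.32 for CTH, 2.30 for STC2, 1.68 for DDIT3 and 0.93 for ASNS, with limma adjusted p-values from 8.3e-04 (CHAC1) to 0.048 (ASNS). Apart from ASNS, each of these genes was lower in both SK-N-MC eKD2 libraries than in both SK-N-MC controls. CHAC1 was at 96.9 and 107 FPKM in the SK-N-MC controls against 49.97 and 57.1 FPKM after silencing, beside 44.3 and 56.3 FPKM in the silenced RD-ES cells. ATF3 was at 58.4 and 61.8 FPKM in the SK-N-MC controls against 37.9 and 36.2 FPKM after silencing.

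TXNIP differed by 1.64, KLF10 by 1.53, ULBP1 by 1.29 and NEAT1 by 1.16 between the lines, with limma adjusted p-values from 0.0090 to 0.034. TXNIP was at 25.1 and 28.6 FPKM in the SK-N-MC controls against 28.5 and 29.7 FPKM after silencing, and NEAT1 at 22.6 and 23.2 FPKM without silencing and 23.8 and 22.7 FPKM with it. PRPH2 differed by 2.65 (limma adjusted p = 0.0049), and it was listed at 0 in all SK-N-MC libraries.

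HSPA8 differed by -1.60 (limma adjusted p = 0.0013). It was at 716 and 647 FPKM in the SK-N-MC controls against 1294 and 1384 FPKM after silencing, whereas it fell in RD-ES. The pseudogene AC068228.1 differed by -2.44 (limma adjusted p = 0.026), at 2.12 and 2.41 FPKM in the SK-N-MC controls against 5.39 and 3.82 FPKM after silencing. What lies behind the difference between the lines was not tested. Groups of 2 libraries are too small to look for a library that stands apart from its group.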

How the results depend on the processing

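LOXHD1 stayed between -4.25 (pseudocount of 0.1) and -3.45 with an adjusted p under the threshold in all 14 alternatives, and between -3.47 and -3.45 without 1 library at a time. The count of 56 genes (47 higher, 9 lower) moved to 16 (15 and 1) with the RD-ES libraries alone, where fewer samples set the spread. Without 1 library it ranged from 22 to 126 (19 to 93 higher, 3 to 33 lower), with 22 without control replicate 1, 28 without control replicate 2 and 126 without eKD2 replicate 2, where the lone library of an arm is assumed to vary like the other groups. The lower genes were 22 with no filter on low values and 4 with a mean of at least 5 FPKM. The median over all genes moved from 0.038 to 0.022 with no filter, to -0.033 after median scaling and to -0.0070 after quantile normalization, and it lay between 0.023 and 0.0499 without 1 library. Genes separated upwards numbered 3550, or 2339 after median scaling, and 5309 to 6107 without 1 library, where 2 libraries are set against 1 and more genes are separated by construction. Genes separated downwards numbered 2186, or 3396 with no filter and 3586 after median scaling, and 3577 to 4415 without 1 library, for the same reason. The samples share only a replicate number: same-numbered libraries correlated with r = 0.081 in their deviations. With the replicate block 19 genes passed (18 higher, 1 lower). Of the 56 genes, 12 passed in all 14 alternatives. For the other genes of the naming rule and those named outside it, 2646 of 2896 values over the alternatives kept direction and call, 231 lost the call, 15 gained it and 4 changed direction without a call. MYC ranged from -0.27 to 0.082 without 1 library and was above 0 without control replicate 2. FANCI was at -0.0050 after median scaling and ranged from -0.094 to 0.23 without 1 library, below 0 without control replicate 1 or eKD2 replicate 2. Of 644 list medians over the alternatives, 136 moved by more than the spread between replicates. The cause of these moves was not tested unless named.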
